A study of Mus musculus with 6 samples.

Results

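Methylated CpG-dense tiles are stretches of the mouse genome that are rich in CpG, the dinucleotide in which cytosine is methylated, and yet carry methylation in normal germinal centre B cells. The genome was divided into 1 kb tiles, and a CpG position is the cytosine of a CpG on a given strand, read at least 10 times in all 6 libraries. A tile counted as CpG-dense with 40 or more such positions, and as methylated when the mean level of the 3 Tet2 WT libraries was 20% or more. By this rule 175 of 8175 autosomal CpG-dense tiles were methylated, and they held 10307 positions, with 40 to 188 and a median of 52 per tile. The level of a tile is the share of its reads called methylated. The tiles were thus chosen by their Tet2 WT levels, so those levels are given as a description, and the Tet2 KO minus Tet2 WT difference shares these libraries.

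Germinal centre B cells from the spleens of C57BL/6 mice gave 3 libraries labelled with a Tet2 knockout genotype (Tet2 KO) and 3 labelled wild type (Tet2 WT). The labels do not say how the deletion was made, whether it was limited to some cells, or what the animals' age, sex and immunisation were. They also do not say that the libraries of a group came from separate animals, and p-values therefore reflect library spread that may be technical. Methylation was read by enhanced reduced representation bisulfite sequencing, which cuts DNA at CCGG sites and so samples CpG-rich fragments at high depth. The libraries held 180397494 to 195582108 reads over positions in Tet2 KO and 174375503 to 203863392 in Tet2 WT, at a mean of 101 to 125 reads per position. The targeted gene showed 6 positions (chr3:133486189-133486297) that were listed in every Tet2 WT library and in no Tet2 KO library. Covered starts of B-cell (2 of 8) and germinal centre (2 of 5) marker genes were under 20% methylated in all libraries. Of the 8 T-cell marker starts 2 were covered, 1 of them under 20% and 1 over 50%, and 0 of 5 myeloid marker starts were covered.

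CpG-dense stretches, known as CpG islands, often mark gene starts and are usually kept free of methylation. Known exceptions are the control regions of imprinted genes, where only the copy from a given parent is methylated, the starts of genes used only in germ cells, which DNA methylation keeps silent in body cells, islands inside gene bodies, and repeats. Tet2 oxidises 5-methylcytosine to 5-hydroxymethylcytosine, a step towards removal of the mark. Bisulfite reads both forms alike, so each level is their sum.

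Of the member tiles 32 held a listed gene start. For these starts 37 promoters are listed, and 745 covered positions fell in them, counted once per promoter. Some of the promoters overlap, so some positions are counted more than once. All 745 lay on a CG of the listed sequence. The 6 promoters below show the kinds of start met here, from RefSeq on GRCm38.p6, 250 bases before to 50 bases after the start, 5′ to 3′ on the gene's strand, with each CG in capitals. Ddx4 is a germ-cell gene methylated almost throughout, Dazl is a germ-cell gene with a border of methylation in its tile, Igf2r is an imprinted gene, Mael is a germ-cell gene with fewer CG, Hoxa6 has an unmethylated start inside a member tile, and Rbm46 holds a position that was higher in Tet2 KO.
Ddx4, chr13:112652261-112652560, minus strand: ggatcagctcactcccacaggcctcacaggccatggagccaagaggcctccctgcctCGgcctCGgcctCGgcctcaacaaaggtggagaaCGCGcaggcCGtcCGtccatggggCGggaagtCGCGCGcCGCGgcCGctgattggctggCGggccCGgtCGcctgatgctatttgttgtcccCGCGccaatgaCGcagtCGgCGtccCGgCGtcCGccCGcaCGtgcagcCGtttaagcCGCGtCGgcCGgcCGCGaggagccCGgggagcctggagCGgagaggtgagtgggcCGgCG
Dazl, chr17:50293571-50293870, minus strand: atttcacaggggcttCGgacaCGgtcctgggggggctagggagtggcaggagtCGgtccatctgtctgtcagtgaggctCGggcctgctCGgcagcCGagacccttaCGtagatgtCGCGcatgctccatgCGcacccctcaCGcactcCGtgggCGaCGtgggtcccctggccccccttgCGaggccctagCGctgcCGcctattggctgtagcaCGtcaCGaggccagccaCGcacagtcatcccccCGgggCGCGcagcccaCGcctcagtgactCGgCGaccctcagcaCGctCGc
Mael, chr1:166238695-166238994, minus strand: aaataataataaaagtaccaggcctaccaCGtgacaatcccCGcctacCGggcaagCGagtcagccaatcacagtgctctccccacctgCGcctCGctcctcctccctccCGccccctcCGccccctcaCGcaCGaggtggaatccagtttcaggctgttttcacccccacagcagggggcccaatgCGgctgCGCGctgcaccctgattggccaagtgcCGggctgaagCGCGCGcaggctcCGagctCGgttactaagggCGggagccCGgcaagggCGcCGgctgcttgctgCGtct
Igf2r, chr17:12769657-12769956, minus strand: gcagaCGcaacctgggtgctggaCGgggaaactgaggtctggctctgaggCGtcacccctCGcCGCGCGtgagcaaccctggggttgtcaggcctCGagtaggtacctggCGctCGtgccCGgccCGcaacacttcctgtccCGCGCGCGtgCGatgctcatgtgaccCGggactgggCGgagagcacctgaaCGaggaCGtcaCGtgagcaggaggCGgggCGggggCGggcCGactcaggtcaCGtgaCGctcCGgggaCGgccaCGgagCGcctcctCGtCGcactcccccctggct
Hoxa6, chr6:52208623-52208922, minus strand: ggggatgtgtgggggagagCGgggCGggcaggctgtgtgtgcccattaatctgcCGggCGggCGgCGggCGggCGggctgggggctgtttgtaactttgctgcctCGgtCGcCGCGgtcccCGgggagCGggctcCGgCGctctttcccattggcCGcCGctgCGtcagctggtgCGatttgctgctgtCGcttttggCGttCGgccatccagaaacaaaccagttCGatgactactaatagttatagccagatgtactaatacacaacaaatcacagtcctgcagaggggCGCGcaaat
Rbm46, chr3:82876434-82876733, minus strand: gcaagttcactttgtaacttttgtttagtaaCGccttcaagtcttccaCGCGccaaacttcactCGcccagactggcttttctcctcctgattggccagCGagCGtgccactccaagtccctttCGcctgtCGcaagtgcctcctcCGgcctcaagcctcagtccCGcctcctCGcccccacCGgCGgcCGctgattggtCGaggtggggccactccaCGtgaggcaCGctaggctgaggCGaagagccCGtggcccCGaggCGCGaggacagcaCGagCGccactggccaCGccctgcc

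These windows hold 38 CG in Ddx4, 28 in Dazl, 24 in Mael, 34 in Igf2r, 26 in Hoxa6 and 25 in Rbm46. The median over the 37 promoters was 26 CG, against 29 over 5664 promoters that start in another CpG-dense tile and 7 over all 32851 listed promoters outside chromosome 18. The E-box CACGTG, which reads the same on both strands, was found in 6 of the 37 promoters (16.2%), among them Ddx4, Mael, Igf2r and Rbm46. It was found in 10.3% of promoters starting in another CpG-dense tile and in 7.15% of all listed promoters. The letters TCCCGC, or GCGGGA on the other strand, the core of sites bound by E2F cell-cycle factors, were in 18 of 37 (48.6%), in 48.0% of promoters starting in another CpG-dense tile and in 19.98% of all. Such a match is only a match of letters.

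Most CpG-dense tiles lay at gene starts, and most methylated ones did not. A listed start fell in 4460 of the 8175 CpG-dense tiles, and 32 of these were methylated (0.717%). Within 1 kb of a start, 9 of 1423 tiles were methylated (0.632%). Near a gene end with no listed start the number was 56 of 1398 (4.01%), inside genes 70 of 538 (13.01%) and outside genes 7 of 111 (6.31%). The remaining member lies on chromosome 18, for which no starts were listed. Listed starts cover 16457 of 20665 autosomal protein-coding genes, so some gene-end tiles may hold an unlisted start.

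**Figure D1:**
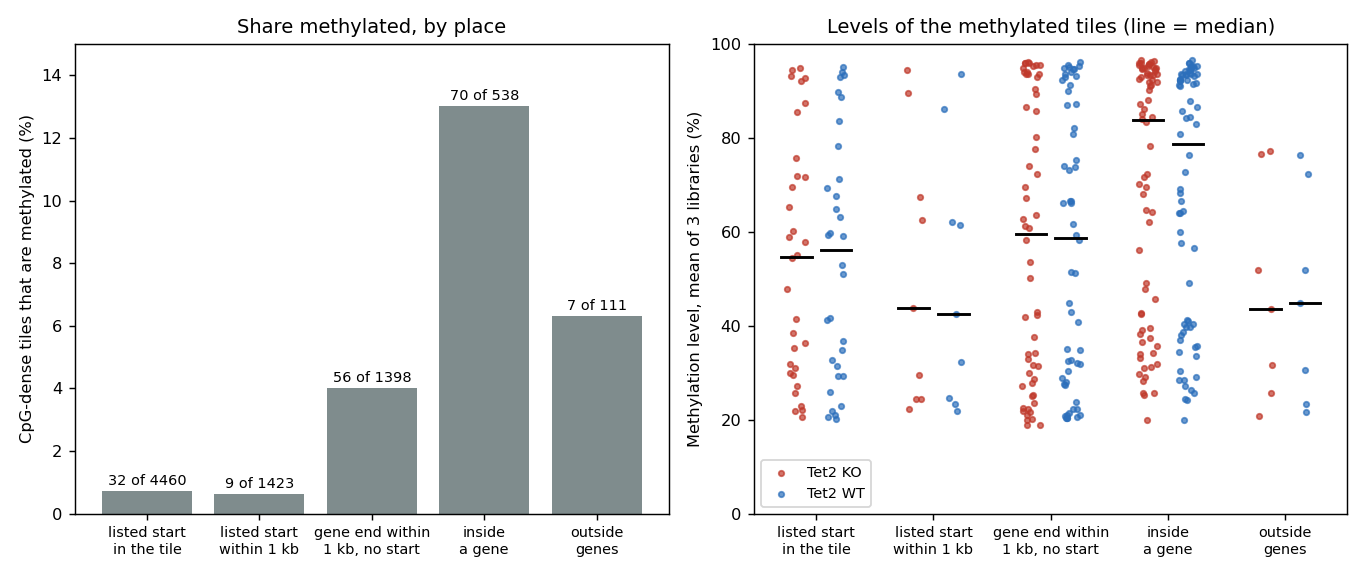
Left, the share of CpG-dense tiles that are methylated (percent), by where the tile lies, with the counts above each bar; the share is 0.717% for tiles with a listed start and 13.01% inside genes. Right, the level (percent, mean of 3 libraries) of each methylated tile in Tet2 KO and Tet2 WT, with the median as a line; tiles inside genes have the highest medians, 83.8% in Tet2 KO and 78.6% in Tet2 WT.

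Tet2 WT levels were most frequent in the highest 10-point step and in the step next to the cutoff of the rule. At Tet2 WT levels of 20% to 30% there were 38 tiles and at 90% to 100% there were 46, with 10 to 23 in each 10-point step between. The low end was set by the rule, since a cutoff of 10% gave 311 members in place of 175. Tiles inside genes had a median level of 83.8% in Tet2 KO and 78.6% in Tet2 WT, and 35 of the 70 were at 80% or more in Tet2 WT. Tiles with a start in them had medians of 54.7% in Tet2 KO and 56.0% in Tet2 WT, and 7 of 32 were at 80% or more. The members were spread unevenly over the genome, with 26 of 514 CpG-dense tiles on chromosome 7, 20 of 360 on chromosome 12 and 0 of 470 on chromosome 9.

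Within tiles, single positions had similar levels in some members and spread widely in others. In 44 tiles at least 80% of positions lay between 20% and 80% and in 56 at least 80% of positions were over 80%. In 3 tiles at least 20% of positions stood at each extreme. The remaining members fell in none of these groups, and such shares take no account of the order of positions along the DNA. The spread of levels between the positions of a tile had a median SD of 14.7 points in Tet2 KO and 15.2 in Tet2 WT. The cytosines on the 2 strands of the same CpG differed by a median of 3.93 points over the 175 tiles.

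CpG-dense tiles at imprinted genes were often methylated. Of 17 CpG-dense tiles within 2 kb of a listed imprinted gene 7 were members (41.2%), against 175 of 8175 in all. They lie at Gnas, a signalling G-protein subunit gene, Cdkn1c, an inhibitor of cell division, Grb10, an adaptor that restrains growth factor signalling, Igf2r, the receptor that clears a growth factor, Commd1 with the imprinted Zrsr1 inside it, and Peg12, which holds 2 tiles. Their levels ran from 29.5% to 43.9% in Tet2 KO and from 28.0% to 42.5% in Tet2 WT. In 6 of the 7 at least 80% of positions were between 20% and 80%, while the median strand difference within a CpG was 10.2 points.

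The Igf2r tile (chr17:12769001-12770000) was at 27.8%, 30.3% and 31.9% in the 3 Tet2 KO libraries and at 32.6%, 39.8% and 25.5% in the 3 Tet2 WT libraries. The groups overlap, and the means of 29.999% ± 2.07 in Tet2 KO and 32.6% ± 7.13 in Tet2 WT (SD, n = 3 each) differ by less than the Tet2 WT spread. Its promoter printed above was at 32.3% in Tet2 KO and 35.8% in Tet2 WT. The Gnas tile (chr2:174299001-174300000) was at 43.1%, 43.1% and 41.3% in Tet2 KO and at 43.4%, 39.7% and 38.2% in Tet2 WT, where again the groups overlap. Although its Tet2 KO mean was the higher, Tet2 KO was above at only 30 of its 73 positions. The median difference of these positions was -4.53 points. The Cdkn1c tile (chr7:143459001-143460000) was at 32.2%, 31.3% and 30.9% in Tet2 KO and at 29.5%, 30.8% and 23.8% in Tet2 WT. Here every Tet2 KO library was above every Tet2 WT library, by 3.43 points on average, with an unadjusted p of 0.0306 and an adjusted p of 0.364 (quasi-binomial test moderated by limma's method, adjusted by Benjamini-Hochberg over 83114 tiles). The tile at Commd1 and Zrsr1 differed by 0.350 points, that at Grb10 by 1.40, and a Peg12 tile by 0.317. The other Peg12 tile (chr7:62463001-62464000) was at 28.7%, 29.9% and 29.7% in Tet2 KO and at 30.1%, 35.2% and 31.8% in Tet2 WT. Here every Tet2 KO library was below every Tet2 WT library, with a difference of -2.92 points (adjusted p = 0.560). Thus 1 of the 7 imprinted tiles was separated in each direction, where 12.7% of all tested tiles had all Tet2 KO libraries above and 3.52% had all below. The Tet2 KO mean was above the Tet2 WT mean in 5 of the 7, against 64% of all tested tiles, with a median difference of 0.350 points, against 1.28 over all tested tiles.

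Germ-cell genes were the next most often methylated list, with 7 of 28 CpG-dense tiles (25%). Ddx4 encodes the germ-cell RNA helicase known as Vasa, Dazl and Boll encode RNA-binding proteins of the same family, Mael acts in transposon silencing, Sohlh2 is a transcription factor of early germ cells, Tdrd6 a tudor protein of spermatids and Tssk3 a testis kinase. The Ddx4 tile (chr13:112652001-112653000) was at 93.0%, 95.95% and 95.6% in Tet2 KO and at 94.0%, 97.5% and 93.8% in Tet2 WT. Sohlh2 averaged 92.8% ± 0.806 in Tet2 KO and 93.3% ± 0.518 in Tet2 WT, and Mael 87.5% ± 0.748 in Tet2 KO and 88.8% ± 0.925 in Tet2 WT (SD, n = 3 each). Boll averaged 75.7% ± 2.30 in Tet2 KO and 78.2% ± 3.50 in Tet2 WT. In none of these 4 did the groups separate.

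The Dazl tile (chr17:50293001-50294000) averaged 72.0% ± 1.04 in Tet2 KO and 71.2% ± 1.59 in Tet2 WT, and its average hides a border. Positions ran from 0.280% to 100% in Tet2 KO and from 1.23% to 100% in Tet2 WT along the tile, low at one side and nearly full at the covered positions around the start. Its promoter window, in which 8 positions were covered, was at 94.1% in Tet2 KO and 95.4% in Tet2 WT. The tile inside Tdrd6 (chr17:43629001-43630000) was at 28.6%, 23.3% and 25.3% in Tet2 KO and at 32.5%, 29.3% and 29.2% in Tet2 WT. It is one of the 4 tested members with all Tet2 KO libraries below all Tet2 WT libraries, with a difference of -4.58 points (adjusted p = 0.196). The tile at Tssk3 and Fam229a was at 27.9%, 22.6% and 26.7% in Tet2 KO and at 23.5%, 21.8% and 16.6% in Tet2 WT, overlapping groups with a mean difference of 5.14 points (adjusted p = 0.181). The Tet2 KO mean was above in 2 of the 7, and the median difference was -0.517 points.

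Other members with a start of a gene of sperm or germ cells were picked after their values were seen. They were at Hsf5, a heat shock factor of meiosis, with 93.2% in Tet2 KO and 92.9% in Tet2 WT, Papolb, a testis poly(A) polymerase, with 47.8% in Tet2 KO and 51.1% in Tet2 WT, and Rbmxl2, a testis RNA-binding protein, with 60.1% in Tet2 KO and 64.8% in Tet2 WT. Rbm46, an RNA-binding protein of germ cells, was at 38.5% in Tet2 KO and 41.2% in Tet2 WT. None of these 4 was called.

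Zinc finger genes, many of which encode repressors of transposons, held 10 members among 158 CpG-dense tiles (6.33%). They were Zfp993 and Zfp865 with 2 tiles each, and Zfp467, Zfp541, Zscan2, Zfp703, Zfpm1 and Zfp996. Partly and fully methylated tiles both occurred, with Tet2 KO levels from 28.7% to 96.2% and Tet2 WT levels from 35.0% to 96.5%. The Zfp993 tile (chr4:146932001-146933000), in a region of duplicated zinc finger genes, had the most negative difference of all members. It was at 31.2%, 26.3% and 28.7% in Tet2 KO and at 32.9%, 36.4% and 35.9% in Tet2 WT. All Tet2 KO libraries were below all Tet2 WT libraries, with a difference of -6.31 points (adjusted p = 0.0939), and of -3.56 points with positions weighted equally. The other Zfp993 tile averaged 61.3% in Tet2 KO and 59.3% in Tet2 WT.

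A stretch of chromosome 12 between 18 and 24 Mb, noticed in the values, held 14 members among its 20 CpG-dense tiles. Zfp996, 5730507C01Rik and mostly predicted genes lie there. Levels ran from 25.7% to 77.3% in Tet2 KO and from 23.4% to 76.3% in Tet2 WT, and in 9 of the 14 at least 80% of positions lay between 20% and 80%. The Tet2 KO mean was above in 7 of 14, and the median difference was -0.134 points. Read depth was ordinary, at 70.7 to 129 reads per position. Copies that share reads cannot be told apart in such a region.

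Developmental regulators, which are mostly CpG-dense and unmethylated, held 6 members among 235 CpG-dense tiles (2.55%). Among these were Pax5, the factor that fixes B-cell identity, Hoxa3, Hoxa5 and Hoxa6 of the homeobox cluster that patterns the body axis, and Tbxa2r, a thromboxane receptor gene that the list took in by the first letters of its name. The Hoxa5 tile was at 91.1%, 94.1% and 91.3% in Tet2 KO and at 88.3%, 90.6% and 90.4% in Tet2 WT (adjusted p = 0.325). The Hoxa6 tile (chr6:52208001-52209000) was at 27.1% ± 0.727 in Tet2 KO and 21.8% ± 1.65 in Tet2 WT (SD, n = 3 each; adjusted p = 0.0551), with no overlap. Its methylation lay away from the start, since the promoter window printed above was at 2.91% in Tet2 KO and 3.17% in Tet2 WT. With positions weighted equally the Hoxa6 difference was 2.53 points in place of 5.28. The Tet2 KO mean was above in 6 of 6 tiles, Tbxa2r included, against 64% of all tested tiles, with a median of 2.39 points, against 1.28. An unadjusted p under 0.05 was found in 3 of the 6, against 11.5% of all tested tiles and 20.5% of all tested members. By limma on log2 ratios the unadjusted p was 0.171 at Hoxa6 and 0.147 at Pax5.

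The Pax5 tile (chr4:44664001-44665000, inside the gene) held 93 positions, and 95.7% of them were between 20% and 80%. It was at 46.0%, 49.5% and 52.0% in Tet2 KO and at 30.5%, 43.1% and 45.5% in Tet2 WT. All Tet2 KO libraries were above, by 9.44 points (adjusted p = 0.205), and the difference was 4.85 points without Tet2 WT replicate 1, the lowest library. The position at 44664176 alone was called, at 66.7%, 63.4% and 64.7% in Tet2 KO and at 15.5%, 46.5% and 43.3% in Tet2 WT (adjusted p = 0.0395 over 525213 positions). Of 31 CpG-dense tiles at listed B-cell genes the only other member was at Mef2b, a germinal centre transcription factor and also the only member at a listed lymphoma gene (1 of 33), with 25.1% ± 2.09 in Tet2 KO and 22.3% ± 7.48 in Tet2 WT. Genes of the methylation machinery had 14 CpG-dense tiles and 0 members, and clustered protocadherins had no CpG-dense tile.

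Tiles with high methylation were mostly inside genes or at their ends. The highest Tet2 WT levels were at Zfp865, with 95.8% in Tet2 KO and 96.5% in Tet2 WT, Grin3b, a glutamate receptor subunit gene, with 95.5% in Tet2 KO and 96.2% in Tet2 WT, and Adgra2, an adhesion receptor gene, with 95.8% in Tet2 KO and 95.97% in Tet2 WT. Among genes of the immune system, picked after their values were seen, the tile inside Tnfrsf13b, which encodes the B-cell receptor TACI, was at 86.3% in Tet2 KO and 84.3% in Tet2 WT. The tile inside Bcl11b, a T-cell lineage factor, was at 92.5% in Tet2 KO and 93.7% in Tet2 WT, with all Tet2 KO libraries below all Tet2 WT libraries (adjusted p = 0.559). Of the 62 members at 80% or more in Tet2 WT, 48 were within the tested range of 5% to 95%, 10 of these had an unadjusted p under 0.05 (20.8%), and all 10 were higher in Tet2 KO. Of all tested tiles at that level 7.02% had such a p, 2792 of them higher and 844 lower. That share rose with the number of positions in less dense tiles too. At a Tet2 WT mean of 80% to 95% it was 6.11% at 3 to 9 positions, 12.4% at 10 to 19 and 21.7% at 20 to 39.

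By read depth 8 members stood apart, covered by 1039 to 11190 reads per position, far over the rest, at 57.1 to 267. They were 5 adjoining tiles of ribosomal DNA on chromosome 17 (39844001 to 39849000) and tiles at Sfi1, Taco1os and Gm36876. Of the 8, 7 were at 20% to 40% in Tet2 WT and 1 at 80% or more. The Tet2 KO mean was below the Tet2 WT mean in 8 of 8, with differences of -2.92 to -0.345 points, and the groups overlapped in each. Copies of a repeat cannot be told apart here. Among those just inside the rule were tiles at Gm20517 (19.98% in Tet2 KO, 20.004% in Tet2 WT) and Mir9-3hg (20.6% in Tet2 KO, 20.1% in Tet2 WT). Just outside were a ribosomal DNA tile (17.7% in Tet2 KO, 19.3% in Tet2 WT) and tiles at Btnl9 (19.19% in Tet2 KO, 19.4% in Tet2 WT) and Nr2f6 (22.2% in Tet2 KO, 19.99% in Tet2 WT).

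The comparison of genotypes asked whether loss of Tet2 changed methylation at these tiles. The mean level of the 175 tiles was 61.0%, 60.3% and 60.8% in the 3 Tet2 KO libraries and 59.0%, 61.2% and 59.4% in the 3 Tet2 WT libraries. Tet2 WT replicate 2 was the highest of the 6, so the groups overlap, at 60.7% ± 0.348 in Tet2 KO and 59.9% ± 1.14 in Tet2 WT (SD, n = 3 each). Single tiles differed by a median of 0.545 points, with a middle 80% from -2.65 to 3.86, and 158 of 175 differed by less than 5 points. That median was 0.240 points without Tet2 WT replicate 1 and 0.945 without Tet2 WT replicate 2. The median over all 83114 tested tiles was 1.28 points. The 8000 other CpG-dense tiles were at 1.42% ± 0.0142 in Tet2 KO and 1.30% ± 0.0456 in Tet2 WT.

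**Figure D2:**
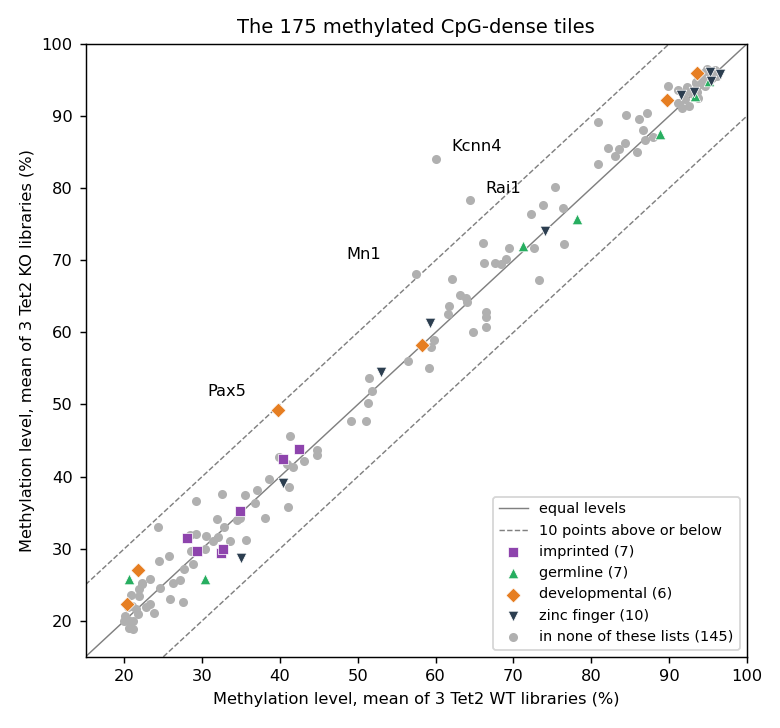
Mean level of each of the 175 methylated CpG-dense tiles in Tet2 KO (y axis, percent) against Tet2 WT (x axis, percent), coloured by gene list. Most points lie along the line of equal levels, 158 within 5 points of it, and Kcnn4, Rai1 and a Mn1 tile lie more than 10 points above it.

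No member was called higher or lower in Tet2 KO, that is, at an adjusted p under 0.05 with means at least 10 points apart, where 0.687% of all tested tiles were called, 0.685% higher and 0.00241% lower. Of the 175 members 161 were tested, and the other 14 were over 95% methylated. At an unadjusted p under 0.05 there were 33 (20.5% of those tested; 11.5% of all tested tiles). That order turned round under other tests, with 3 members (1.86%) against 9.40% of all tested tiles by limma on log2 ratios, and 11 (6.83%) against 9.18% with unmoderated dispersion. Of the 33, 27 were higher, against 10.1% of all tested tiles, and 6 lower, against 1.39%. All Tet2 KO libraries were above all Tet2 WT libraries in 23 of 161 (14.3%), against 12.7% of all tested tiles, and below in 4 (2.48%), against 3.52%. The Tet2 KO mean was above in 104 of 175 (59.4%), against 64% of tested tiles. Reads per position of Tet2 KO relative to Tet2 WT, scaled to each library's total, had a median of -0.06 on the log2 scale. The median SD of a tile was 1.63 points in Tet2 KO and 2.10 in Tet2 WT, with the Tet2 WT spread the wider in 120 of 175, and Tet2 WT replicate 1 was the lowest library in 53 tiles and Tet2 WT replicate 2 the highest in 54.

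Adjusted p was under 0.05 in 2 of the 161 tested members, against 0.734% of all tested tiles, and both differences were under 10 points. The 2700081O15Rik tile (chr19:7421001-7422000) was at 88.4%, 89.2% and 90.1% in Tet2 KO and at 80.8%, 76.9% and 85.04% in Tet2 WT. The groups do not overlap, and the difference was 8.32 points (adjusted p = 0.0475), while the 2 tiles that follow it along the gene differed by -0.278 and 0.455. Without Tet2 WT replicate 3 the 2700081O15Rik difference was 10.4 points and was called (adjusted p = 0.00659), and over the 14 alternatives its adjusted p ran to 0.498. The tile inside Atn1, a transcriptional corepressor gene (chr6:124745001-124746000), was at 36.8%, 33.9% and 39.1% in Tet2 KO and at 27.9%, 29.3% and 30.3% in Tet2 WT, 7.41 points apart (adjusted p = 0.0331). Atn1 has a methylated side, at 69.4% in Tet2 KO and 62.4% in Tet2 WT over its positions, and an unmethylated side, at 0.238% in Tet2 KO and 0.537% in Tet2 WT. The methylated side took 56.0%, 56.7% and 59.3% of the tile's reads in Tet2 KO and 53.3%, 46.0% and 53.4% in Tet2 WT. With positions weighted equally the Atn1 difference was 2.85 points, and over the alternatives its adjusted p ran from 0.0142 to 0.632.

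**Figure D3:**
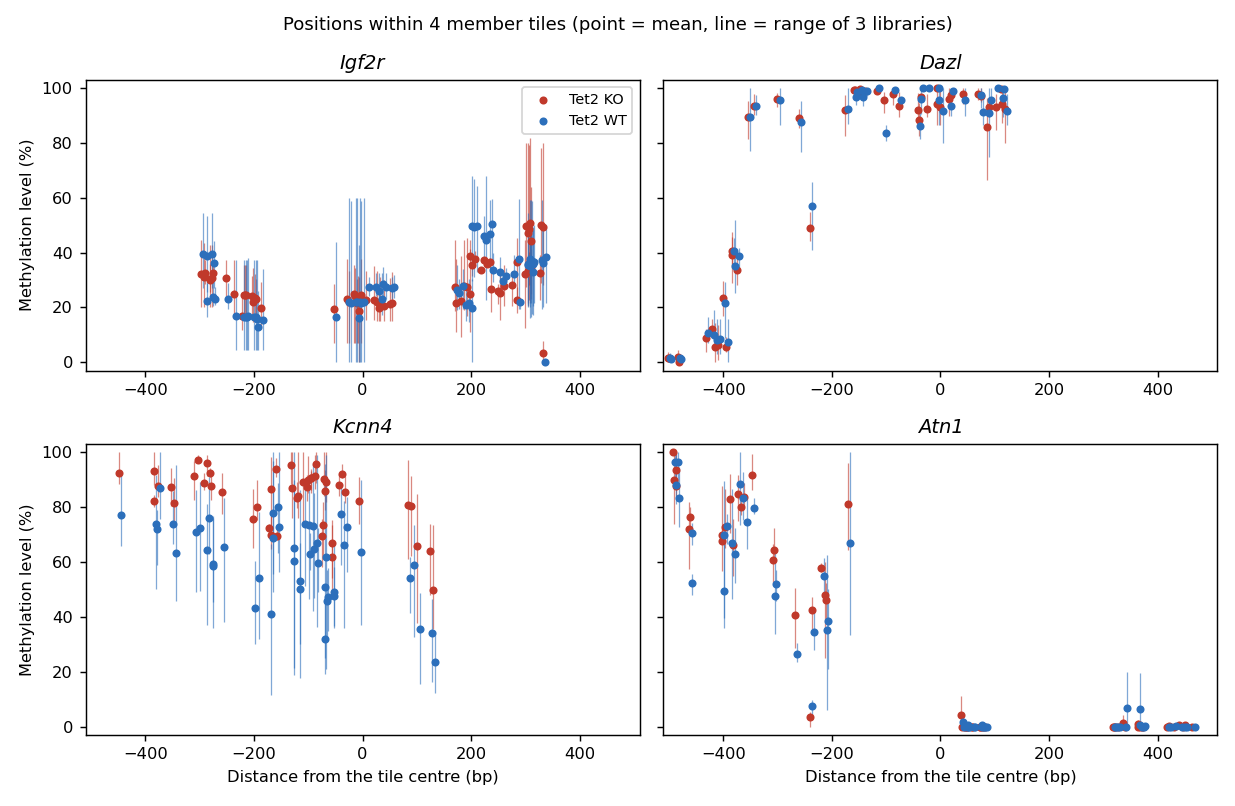
Level of every covered position (percent) against its distance from the tile centre (bp) in 4 member tiles, with the mean as a point and the range of 3 libraries as a line, in Tet2 KO and Tet2 WT. Igf2r has 88.4% of its positions between 20% and 80% (mean of all 6 libraries), and Dazl passes from near 0.280% to full methylation. Tet2 KO is above Tet2 WT at 46 of 47 positions of Kcnn4, and only one side of Atn1 is methylated.

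The widest differences were all higher in Tet2 KO and all inside genes. The Kcnn4 tile (chr7:24377001-24378000), in the gene of a calcium-activated potassium channel of lymphocytes, was at 85.1%, 86.6% and 80.7% in Tet2 KO and at 39.4%, 75.1% and 65.6% in Tet2 WT. The groups do not overlap, but the Tet2 WT libraries spread over 18.5 points (SD, n = 3), and the difference of 24.1 points had an adjusted p of 0.0956. Tet2 KO was above at 46 of 47 positions. Without Tet2 WT replicate 1 the difference was 13.7 points and was called (adjusted p = 0.0414), as it was without Tet2 WT replicate 2, at 31.6 points (adjusted p = 0.0188). Over all the alternatives its adjusted p ran from 0.00603 to 0.596.

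The tile inside Rai1, a nuclear regulatory protein gene (chr11:60189001-60190000), was at 78.6%, 81.8% and 74.5% in Tet2 KO and at 55.4%, 71.1% and 66.8% in Tet2 WT, 13.9 points apart (adjusted p = 0.0587). It was called without Tet2 WT replicate 2, at 17.2 points (adjusted p = 0.0224), and over the alternatives its adjusted p ran from 0.00765 to 0.546. Mn1, a transcriptional coactivator gene, held 2 adjoining tiles. The first (chr5:111419001-111420000) was at 68.8%, 69.5% and 65.9% in Tet2 KO and at 50.8%, 56.0% and 65.8% in Tet2 WT, 10.6 points apart (adjusted p = 0.141). The other was at 35.1%, 27.3% and 36.8% in Tet2 KO and at 22.4%, 19.7% and 30.7% in Tet2 WT, where the groups overlap. Both Mn1 tiles were called without Tet2 WT replicate 3, at 14.7 and 11.98 points (adjusted p = 0.00335 and 0.0207), and over the alternatives their adjusted p reached 0.610 and 0.670.

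Among the remaining members with small p, Fam110a averaged 72.4% in Tet2 KO and 66.0% in Tet2 WT (adjusted p = 0.0508) and Fam222a 90.2% in Tet2 KO and 84.5% in Tet2 WT (adjusted p = 0.0781). Over the alternatives these ran from 0.0330 to 0.664 at Fam110a and from 0.0108 to 0.551 at Fam222a. The Fam222a difference was 3.49 points without Tet2 WT replicate 1, against 5.72 with all libraries. After Zfp993, the most negative differences were at Snx20, a sorting nexin gene, with 67.2% ± 9.02 in Tet2 KO and 73.2% ± 7.17 in Tet2 WT, and at Sod3, the extracellular superoxide dismutase gene, with 60.8% ± 7.46 in Tet2 KO and 66.5% ± 5.22 in Tet2 WT (SD, n = 3 each). Groups overlap at both, and the differences ranged from -10.9 to -1.96 and from -9.36 to -1.90 points over the alternatives run. Their adjusted p ran from 0.00740, with a replicate block, to 0.949 at Snx20 and from 0.324 to 0.929 at Sod3. The widest Tet2 WT spreads after Kcnn4 were at Basp1 and 3110070M22Rik. Basp1 was at 25.5%, 23.7% and 18.6% in Tet2 KO and at 31.9%, 36.2% and 14.4% in Tet2 WT, and without Tet2 WT replicate 3 it was called lower in Tet2 KO, with a difference of -11.4 points (adjusted p = 0.0233), against -4.88 with all libraries.

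**Figure D4:**
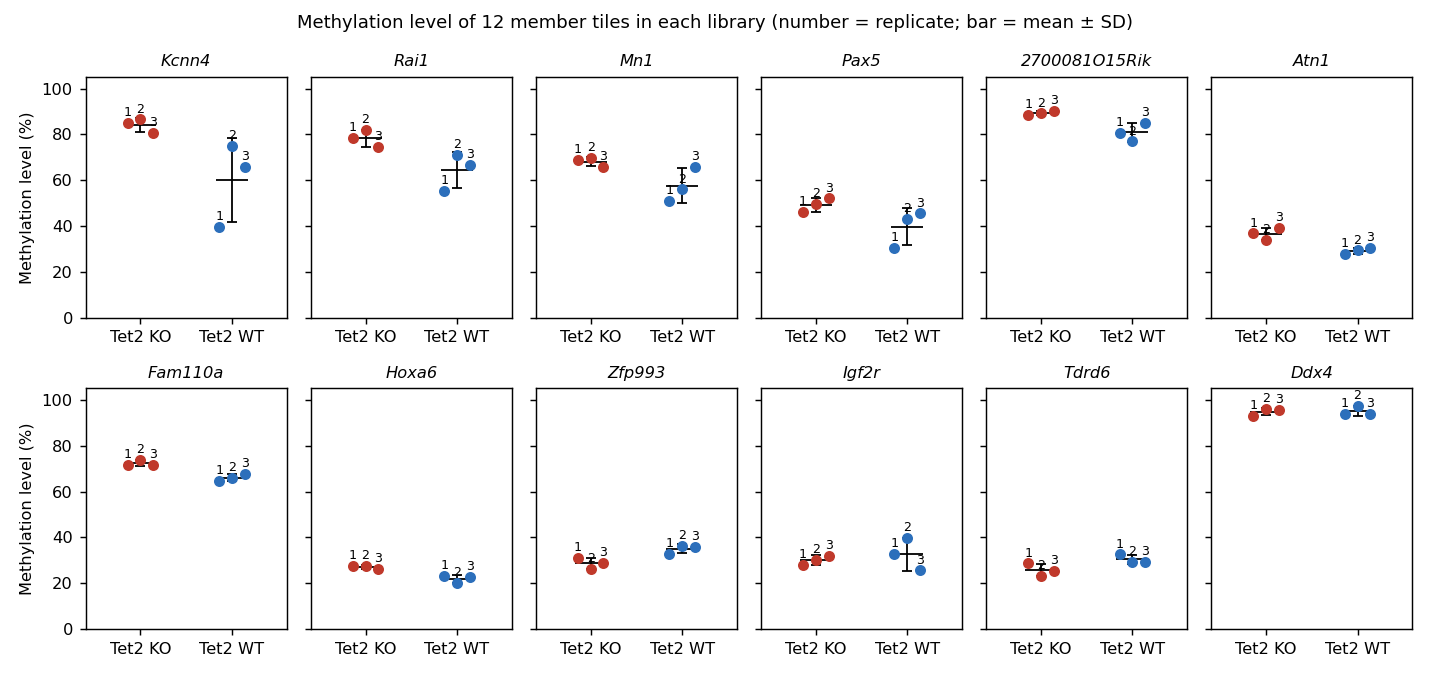
Level (percent) of 12 member tiles in each Tet2 KO and Tet2 WT library, numbered by replicate, with the mean and SD. Kcnn4, Rai1 and Pax5 have Tet2 WT replicate 1 lowest, Zfp993 and Tdrd6 are lower in Tet2 KO, and Igf2r and Ddx4 overlap.

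Single positions were tested with the same model. Here the dispersion was drawn strongly to a common value (87.4 prior degrees of freedom, against 9.35 for tiles). The spread between libraries at a single position therefore counted little. Of the 10307 positions in members 8156 were tested, and 8 were higher in Tet2 KO, against 0.284% of all tested positions, and 11 lower, against 0.0105%. The 8 lie at Kcnn4 and Fam222a, with 2 each, and at Rai1, Pax5, Gnas and Rbm46. At Fam222a the position 114611723 was at 90.5%, 90.5% and 81.2% in Tet2 KO and at 25.8%, 57.1% and 26.1% in Tet2 WT (adjusted p = 6.14e-05). In the Rbm46 promoter the position 82876475, 8 bases into the gene, was at 33.6%, 29.0% and 30.2% in Tet2 KO and at 5.56%, 4.73% and 3.88% in Tet2 WT (adjusted p = 0.0298), in a tile whose difference was -2.70 points. In the Gnas tile the position 174299947 was at 34.5%, 37.2% and 37.6% in Tet2 KO and at 18.01%, 22.7% and 6.35% in Tet2 WT (adjusted p = 0.0404). The 11 lower positions all lie on the plus strand of the ribosomal DNA, from 39845694 to 39845733 and from 39846249 to 39846277. At each the groups overlap. Neighbouring positions can share reads, so these are not 11 separate results. At the first of them Tet2 KO was at 21.8%, 4.84% and 19.09% and Tet2 WT at 11.3%, 44.9% and 39.9%.

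Members were set beside less dense tiles of the same level. With tiles classed by the mean of all 6 libraries, those at 20% to 40% differed by a median of 0.333 points at 40 or more positions (64 tiles, 0 called), 1.59 at 20 to 39 (175 tiles, 6 called higher), 2.60 at 10 to 19 (584 tiles, 23 called) and 3.86 at 3 to 9 (3043 tiles, 91 called). At 40% to 80% the medians were 0.916 (51 tiles), 1.62, 2.71 and 2.65 points in the same order. At 80% to 95% they were 0.894 (48 tiles), 1.09, 1.11 and 0.945 points. Classed by the Tet2 KO mean, the medians at 20% to 40% were 1.01, 1.74, 2.49 and 3.34 points, so the order held with closer values. Reads per tile moved with this, with medians of 6762 reads per library at 40 or more positions and 468 at 3 to 9, and their part in the result was not tested. Of the 8 members over 1000 reads per position, 7 were at 20% to 40% in Tet2 WT, and all 8 differences were negative. The median of that class without these deep tiles was not tested. The difference between dense and less dense tiles was itself not tested.

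**Figure D5:**
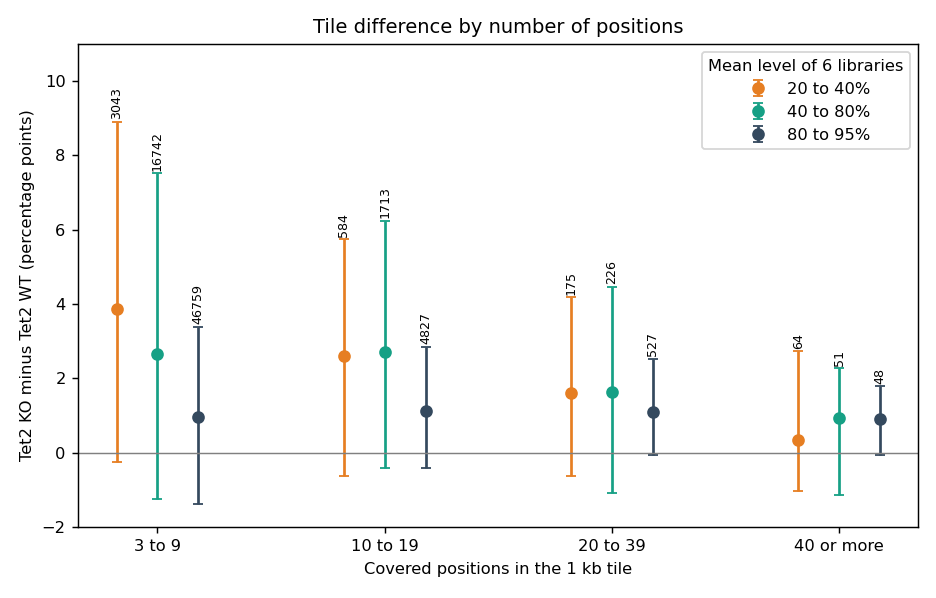
Tet2 KO minus Tet2 WT difference (percentage points, median with quartiles) of tiles by number of covered positions and by mean level of 6 libraries, with the number of tiles above each bar. At 20% to 40% the median is 0.333 points for 40 or more positions and 3.86 for 3 to 9, while at 80% to 95% it is close to 1 in each class.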

How the data were processed

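Each deposited file gives, per CpG position and strand, a coverage (read count) and the percent of calls that were C or T, per the file headers. Reads were aligned with Bismark to GRCm38, per the submitters' processing notes; the version is not given in the sources used here. Multiplying the deposited percent by the coverage gave methylated read counts, whole at 100% of positions within the rounding of the files. Positions with a coverage of 10 or more in all 6 libraries were used, 1463044 of 2029165, and PCR copies were not told apart, so depth sets counting error only.

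Tiles of 1 kb with at least 3 positions and a mean level of 5% to 95% entered a quasi-binomial logistic model, with its dispersion moderated by limma's empirical Bayes method, rewritten in Python 3.11.15 (NumPy 2.4.6, SciPy 1.17.1) and checked against limma 3.58.1 and on simulated data. P-values were adjusted by Benjamini-Hochberg over all tested tiles, and a call needed an adjusted p under 0.05 and means at least 10 points apart. With 3 libraries against 3 an exact permutation test could not go below 0.1, so none is given.

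Gene names come from the RefSeq table for GRCm38.p6, and a tile belongs to a list within 2 kb of a listed gene. Of the written symbols 48 of 49 imprinted, 116 of 120 germline, 62 of 63 B-cell and 36 of 40 lymphoma symbols matched. The members and lists were chosen with earlier results of these data known. The genes named are list members, those at the ends of each ranking and those with the smallest p, plus those said to be picked after their values were seen. The rule would also name 1 further member, which is not reported here. Tile deviations of same-numbered replicates hardly correlated (0.0228, 0.00211 and 0.00359), which does not show whether single members move together by replicate.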

Additional observations from a re-analysis of the deposited data

How the results depend on the processing

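The count of members called was 0 in the main test. Some tests called almost nothing anywhere, so their 0 among members shows no stability: limma on log2 ratios and unmoderated dispersion called 0 of 83114 tiles (7810 and 7633 at an unadjusted p under 0.05, with 3 and 11 members), and testing all covered tiles called 8 of 113541. The count was also 0 with a coverage minimum of 20, the most covered positions left out, autosomes only, other level rules, 50 or more positions, and without any one Tet2 KO replicate, where 0.149% to 0.169% of all tiles were called. The rules of 50 or more positions and of a Tet2 WT mean of 30% kept only some of the same members in the main fit. Their 0 was therefore fixed in advance. Leaving out 1 replicate gave 0 to 4 calls, with 1 (Kcnn4) without Tet2 WT replicate 1, 2 (Kcnn4 and Rai1) without replicate 2 and 4 (both Mn1 tiles, Basp1 and 2700081O15Rik) without replicate 3. Positions weighted equally gave 1 call (2700081O15Rik, 10.04 points), a rule of 30 or more positions gave 2, both in tiles with fewer than 40, and single positions gave 19, 8 higher and 11 lower. The fit with a replicate block gave 2 calls (Kcnn4 and Rai1) and raised the members with an adjusted p under 0.05 from 2 to 10. For these tile settings with calls the share of all tiles called is not given here, so the counts cannot be read against it. The adjustment itself also changed: at Fam222a a quasi-binomial p of 0.000867 without Tet2 WT replicate 3 became 0.0532. With all libraries 0.000916 became 0.0781. The labels give no pairing, and the tile deviations of same-numbered replicates hardly correlated. Methylation read on mitochondrial DNA was 0.258%, 0.408% and 0.294% in Tet2 KO and 0.260%, 0.410% and 0.241% in Tet2 WT replicates 1 to 3; their part in the block result was not tested. No member named for a small p or a wide difference reversed its sign under the 14 alternatives run for it. Most of this was fixed in advance. Other tests, the replicate block and the choice of tested tiles change the p-value but not the difference. Where the groups do not overlap, leaving out 1 library cannot reverse the sign.

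The median difference of 0.545 points ran from 0.240 to 0.945 with a replicate left out. It was 0.746 at a coverage minimum of 20, 0.763 with positions weighted equally, 0.841 at 30 or more positions, 0.748 for a mean of all 6 libraries of 20% or more and also without the 8 deepest members (a choice made after seeing the data), and 0.844 for a Tet2 KO mean of 20% or more.

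The mean Tet2 KO level of 60.7% was 59.1% at a coverage minimum of 20, 61.2% without the most covered positions, 65.3% at 30 and 56.2% at 50 or more positions, 40.4% and 70.6% for Tet2 WT means of 10% and 30%, 60.4% and 59.5% for the rule on all 6 libraries and on Tet2 KO, and 62.2% without the deepest members. Relative coverage (log2 -0.06) ran from -0.0852 to -0.0153 with a replicate left out, and was -0.0243 at a coverage minimum of 20, -0.0470 without the most covered positions, -0.0164 at 30 or more positions, -0.0359 for a Tet2 WT mean of 10% and -0.0470 for the Tet2 KO rule. The within-tile SD of 14.7 points was 13 at 30 and 13.5 at 50 or more positions and 13.1 for a Tet2 WT mean of 30%. The share of members with a listed start stayed between 16.2% and 23.2% under 9 rules. The cause of these shifts was not tested.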
